A study of Mus musculus with 12 samples.

Results

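The genes described here are 10 genes of neutrophil granules, cytosol and surface, measured in whole lungs of mice with house dust mite (HDM) asthma. They are S100a8, S100a9, Ly6g, Mmp8, Mmp9, Trem1, Cd177, Retnlg, Ngp and Ltf, which were picked by symbol as 10 of the 19937 genes that the arrays measured with a probe set of a single gene symbol. Where a gene has several such probe sets, the brightest on average over the 12 arrays stands for it, and each of the 10 genes has 1.

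RNA from whole lungs of Balb/c mice was hybridised to Affymetrix whole-transcript arrays, with 1 array per mouse and 3 mice in each of 4 groups. The neutrophilic group (mice 23, 24 and 25) received HDM extract with 7.5 DU, the development units of the extract, of each of the allergens Der f and Der p, into the nose once a week for 4 applications. The mixed group (mice 15, 16 and 17) had the same schedule with 0.75 DU of each allergen. The eosinophilic group (mice 7, 8 and 9) was sensitised by 3 injections into the peritoneum, the last on day 21, of 0.75 DU of each allergen on 1.5 mg of aluminium hydroxide, and was challenged through the nose with the like dose on days 26 to 28. The control group (mice 1, 2 and 3) received only phosphate-buffered saline (PBS) through the nose. The group names are those of the labels, and no age or sex was used.

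Neutrophils leave the bone marrow loaded with granules that are made in sequence. Primary granules with myeloperoxidase and elastase form first, in promyelocytes, then specific granules with lactoferrin, then gelatinase granules, and surface receptors and the S100 proteins of the cytosol are prominent in the mature cell. In the lung these cells come from the blood, so transcripts of late granules and receptors in lung tissue are commonly used as a sign of neutrophil entry.

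The values are log2 intensities made by robust multi-array averaging (RMA), and 1 unit of difference on this scale is a 2-fold difference in intensity. The array of eosinophilic mouse 7 stood apart, with an SD over its values of 0.995 and a correlation of 0.356 with the median of the other arrays. Neutrophilic mouse 23 and eosinophilic mouse 9 also had narrow arrays (SD 1.514 and 1.522, correlation 0.868 and 0.863), while the other 9 arrays had SDs from 1.774 to 2.042 and correlations from 0.956 to 0.98. The array medians were 5.5 in eosinophilic mouse 7, 5.284 in neutrophilic mouse 23 and 5.245 in eosinophilic mouse 9, and 4.935 to 5.141 on the other 9. The part of these higher medians in the readings of dim genes was not tested. Lung tissue markers such as the surfactant gene Sftpc averaged 11.7 to 12.22 in neutrophilic, 11.81 to 12.48 in mixed and 12.3 to 12.46 in control lungs. In eosinophilic lungs they averaged 6.91 to 12.11, with the low end from mouse 7. Sftpc alone read 7.38, 14.31 and 12.95 in eosinophilic mice 7, 8 and 9. Tests of the 10 genes are therefore given over all 12 arrays and again over the 11 arrays without eosinophilic mouse 7. A gene is said to rise or fall where the adjusted p of limma's moderated test, taken over all 19937 genes, was under 0.05.

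The transcription factors PU.1 and the C/EBP family are known to drive genes of the granulocyte lineage. RefSeq windows of 300 bases around the start site (build GRCm38.p6) were held for 9 of the 10 genes. The windows of S100a8, Mmp8 and Ly6g are shown because they hold the letters GAGGAAGT of a PU.1 motif, and those of S100a9 and Ngp because they belong to the genes with the largest fold and the widest spread in the neutrophilic group. Capitals mark matches, on either strand, to GAGGAAGT or to TTNNGNAA, the letters searched for C/EBP.
S100a8 (chr3:90668821-90669120, plus strand): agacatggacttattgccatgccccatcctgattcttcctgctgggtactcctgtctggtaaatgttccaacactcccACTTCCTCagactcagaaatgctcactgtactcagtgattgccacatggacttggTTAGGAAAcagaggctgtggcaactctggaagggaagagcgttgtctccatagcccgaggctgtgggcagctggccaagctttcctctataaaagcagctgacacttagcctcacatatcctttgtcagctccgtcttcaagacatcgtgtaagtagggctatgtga
Mmp8 (chr9:7558179-7558478, plus strand): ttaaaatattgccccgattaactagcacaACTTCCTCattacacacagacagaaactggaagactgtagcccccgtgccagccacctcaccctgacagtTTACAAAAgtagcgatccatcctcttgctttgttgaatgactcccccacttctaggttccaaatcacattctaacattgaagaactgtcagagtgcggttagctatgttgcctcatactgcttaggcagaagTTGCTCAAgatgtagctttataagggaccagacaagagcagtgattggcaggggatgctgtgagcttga
Ly6g (chr15:75155011-75155310, plus strand): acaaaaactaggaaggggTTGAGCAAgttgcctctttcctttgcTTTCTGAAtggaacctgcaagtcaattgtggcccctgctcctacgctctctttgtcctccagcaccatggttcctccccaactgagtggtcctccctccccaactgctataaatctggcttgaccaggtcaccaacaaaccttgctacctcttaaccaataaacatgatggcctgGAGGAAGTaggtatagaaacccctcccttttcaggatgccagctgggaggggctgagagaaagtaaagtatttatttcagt
S100a9 (chr3:90695672-90695971, minus strand): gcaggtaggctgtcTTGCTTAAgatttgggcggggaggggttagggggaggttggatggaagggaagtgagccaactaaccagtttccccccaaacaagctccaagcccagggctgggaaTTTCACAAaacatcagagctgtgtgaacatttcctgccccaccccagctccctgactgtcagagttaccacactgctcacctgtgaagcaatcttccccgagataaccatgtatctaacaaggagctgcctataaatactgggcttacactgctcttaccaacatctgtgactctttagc
Ngp (chr9:110419558-110419857, plus strand): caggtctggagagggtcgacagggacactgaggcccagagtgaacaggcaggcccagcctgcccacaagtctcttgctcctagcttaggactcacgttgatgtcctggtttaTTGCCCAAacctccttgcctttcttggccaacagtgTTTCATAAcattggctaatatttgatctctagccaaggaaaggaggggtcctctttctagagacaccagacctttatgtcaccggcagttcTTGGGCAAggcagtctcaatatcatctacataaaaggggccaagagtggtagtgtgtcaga
The PU.1 letters were found in 3 of the 9 genes with a window, and in 3.2% of all 32851 windows. They began 172 bases before the start site in S100a8, 221 before it in Mmp8 and 31 before it in Ly6g. The C/EBP letters were found in 9 of the 9, and in 40.7% of all windows, and no match to either motif overlapped a match to the other. A match of letters describes the window only.

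By group mean, each of the 10 neutrophil genes was highest in the neutrophilic or the mixed group, the groups on the weekly intranasal schedule. This held with and without eosinophilic mouse 7, and the share of all genes with such a pattern was not counted. In neutrophilic lungs 6 of the 10 rose against control over all 12 arrays, against 0.662% of all genes, and none fell, against 1.45% of all genes. These were S100a8, S100a9, Ly6g, Mmp8, Trem1 and Cd177, by 6.11-fold to 10.1-fold. Over the 11 arrays 9 of the 10 rose, against 2.24% of all genes, with 7.23% of all genes falling, and Mmp9 was the gene that did not pass. The median log2 difference of the 10 genes was 2.64, against 0.05 over all genes. In control lungs Ly6g (mean 4.6), Mmp8 (4.63), Trem1 (4.69) and Ngp (4.2) were dim, below the control array medians of 4.935 to 5.083. The part of this dim reference in their folds and control SDs was not tested. In whole lung, more neutrophils, more RNA per neutrophil and RNA of these genes from other cells cannot be told apart. The labels name the animals but no batch. With 1 array per mouse, the p-values measure the spread between mice and between arrays together, pooled by limma over the groups.

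**Figure D1:**
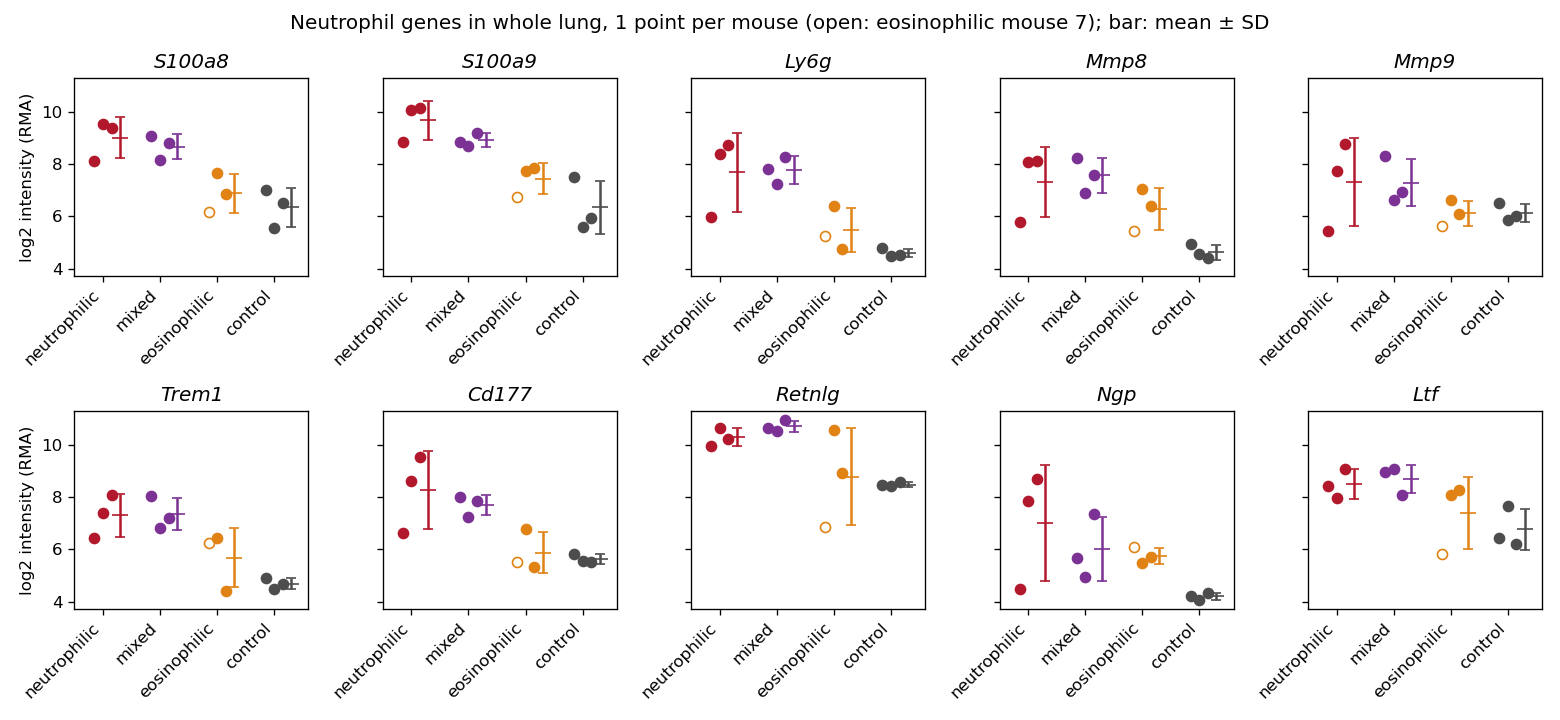
Log2 intensity (vertical axis) of each of the 10 genes in neutrophilic, mixed, eosinophilic and control lungs, with 1 point per mouse, an open point for eosinophilic mouse 7 and bars for the mean ± SD of 3 mice. The 3 mixed mice lie above the 3 control mice in all 10 panels, and the lowest neutrophilic point is mouse 23 in 9 of the 10.

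S100a8 and S100a9 encode the calcium-binding partners of calprotectin, the main protein complex of neutrophil cytosol. S100a8 read 8.11, 9.53 and 9.39 in neutrophilic mice 23, 24 and 25, 9.06, 8.15 and 8.81 in mixed mice 15, 16 and 17, 6.17, 7.65 and 6.84 in eosinophilic mice 7, 8 and 9, and 7.02, 5.54 and 6.5 in control mice 1, 2 and 3. All 6 mice given HDM through the nose on the weekly schedule lay above all eosinophilic and control mice, while eosinophilic and control mice overlapped. The neutrophilic mean was 9.01 ± 0.79 and the control mean 6.35 ± 0.75 (SD, n = 3 each), a log2 difference of 2.66 ± 0.51 (SE), or 6.31-fold, with a limma adjusted p of 0.0209 over 12 arrays and 0.00261 over 11.

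S100a9 gave 8.83, 10.08 and 10.14 in the neutrophilic mice, 8.84, 8.69 and 9.21 in the mixed mice, 6.75, 7.74 and 7.85 in the eosinophilic mice, and 7.5, 5.59 and 5.95 in the control mice. Again the weekly intranasal mice all lay above the others, and control mouse 1 lay above eosinophilic mouse 7. The rise in neutrophilic lungs was 3.34 ± 0.51 on the log2 scale, 10.1-fold, with an adjusted p of 0.00936 over 12 arrays and 0.000811 over 11. Leaving out each of the 12 arrays in turn kept its difference between 2.96 and 3.92, and it passed the threshold in 9 of those 12 fits, more often than any other of the 10 genes.

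Ly6g, Cd177 and Trem1 encode surface proteins. Ly6g is the lipid-anchored antigen by which mouse neutrophils are commonly sorted. Its values were 5.96, 8.38 and 8.73 in neutrophilic mice 23, 24 and 25, 7.81, 7.25 and 8.29 in mixed mice, 5.24, 6.41 and 4.77 in eosinophilic mice, and 4.79, 4.49 and 4.54 in control mice. Both weekly intranasal groups lay above all controls, but neutrophilic mouse 23 lay below eosinophilic mouse 8. Ly6g rose by 3.08 ± 0.63 in neutrophilic lungs, 8.48-fold (adjusted p 0.029 over 12 arrays, 0.00655 over 11). Its mean was 7.69 ± 1.51 in neutrophilic lungs and 4.6 ± 0.16 in control lungs (SD, n = 3 each), the smallest control SD of the 3 surface genes. That control mean is dim, below the medians of the control arrays.

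Cd177 encodes a lipid-anchored neutrophil protein that, in human, holds proteinase 3 on the cell surface. It measured 6.63, 8.6 and 9.54 in neutrophilic, 8.0, 7.26 and 7.86 in mixed, 5.51, 6.78 and 5.34 in eosinophilic and 5.83, 5.54 and 5.51 in control mice. Neutrophilic mouse 25 was the highest of the 12 mice, and mouse 23 was below eosinophilic mouse 8. The rise in neutrophilic lungs was 2.63 ± 0.61, 6.19-fold (adjusted p 0.0472 over 12 arrays, 0.012 over 11).

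Trem1 encodes an activating receptor of neutrophils and monocytes that signals through the adaptor TYROBP. Its intensities were 6.42, 7.39 and 8.09 in neutrophilic, 8.04, 6.83 and 7.2 in mixed, 6.25, 6.42 and 4.4 in eosinophilic, and 4.91, 4.49 and 4.67 in control mice. Eosinophilic mice 7 and 8 stood near the lowest neutrophilic mouse, while eosinophilic mouse 9 lay below all controls. Trem1 rose by 2.61 ± 0.55 in neutrophilic lungs, 6.11-fold (adjusted p 0.0328 over 12 arrays, 0.00628 over 11).

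Mmp8 and Mmp9 encode the matrix proteases of the granules, the neutrophil collagenase and gelatinase B. Mmp8 read 5.78, 8.09 and 8.13 in neutrophilic, 8.25, 6.91 and 7.59 in mixed, 5.44, 7.04 and 6.39 in eosinophilic, and 4.96, 4.55 and 4.39 in control mice. All 9 mice given HDM lay above all 3 controls, though eosinophilic mouse 7, at 5.44, was near its array median of 5.5. Mmp8 rose by 2.70 ± 0.61 in neutrophilic lungs, 6.5-fold (adjusted p 0.0424 over 12 arrays, 0.0069 over 11).

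Mmp9, which macrophages and epithelium also make, gave 5.45, 7.75 and 8.77 in neutrophilic, 8.31, 6.63 and 6.94 in mixed, 5.65, 6.62 and 6.09 in eosinophilic, and 6.51, 5.87 and 6.0 in control mice. Neutrophilic mouse 23 lay below all controls and mouse 25 above all other mice. The difference in neutrophilic lungs was 1.20 ± 0.69, and its 95% interval ran from -0.3 to 2.7 (adjusted p 0.482 over 12 arrays, 0.292 over 11). Mmp9 was the only one of the 10 genes that passed in none of the 12 fits that left out an array. Without eosinophilic mice 7 and 9 and neutrophilic mouse 23, the 3 mice with narrow arrays, all 10 genes passed, as did 3188 of the 19937 genes in that fit.

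Ngp and Ltf encode proteins of specific granules, neutrophilic granule protein of the cathelicidin-like family and the iron-binding lactoferrin. Ngp measured 4.48, 7.85 and 8.69 in neutrophilic, 5.69, 4.96 and 7.37 in mixed, 6.08, 5.49 and 5.71 in eosinophilic, and 4.2, 4.08 and 4.33 in control mice. The 3 controls were below all 9 mice given HDM, and neutrophilic mouse 23 was the lowest of those 9. Ngp had the widest spread of the 10 genes in neutrophilic lungs, at 7.01 ± 2.23, against 4.2 ± 0.12 in controls (SD, n = 3 each). This control mean too was below the medians of the control arrays. The Ngp difference of 2.80 ± 0.87 did not pass over 12 arrays (adjusted p 0.126) and did over 11 (0.0481).

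Ltf, which airway glands and epithelium also make, read 8.44, 7.95 and 9.08 in neutrophilic, 8.96, 9.07 and 8.09 in mixed, 5.82, 8.07 and 8.29 in eosinophilic, and 6.42, 7.67 and 6.21 in control mice. Control mouse 2 was the highest control here, though it was the lowest control in 7 of the 10 genes. The difference of 1.72 ± 0.62 in neutrophilic lungs did not pass over 12 arrays (adjusted p 0.186) and passed over 11 (0.0178). Markers of airway secretory cells and glands were read beside it. None of 7 passed over 12 arrays in neutrophilic lungs, and 3 of the 7 (Pigr, Muc5b and Bpifb1) rose over 11, by 3.26, 2.73 and 2.55. These 3 also rose in mixed and in eosinophilic lungs over 11. The other 4 did not pass in neutrophilic lungs, with differences of 1.28 (Scgb3a1), 0.66 (Scgb1a1), -0.46 (Lyz1) and -2.04 (Bpifa1). The log2 of the summed intensity of the 7 markers ran from 14.1 to 14.51 in neutrophilic, 14.25 to 14.56 in mixed, 8.77 to 13.85 in eosinophilic and 13.51 to 14.27 in control lungs, and their part in the Ltf values was not tested. The low eosinophilic end, 8.77, was from mouse 7, the array that stood apart.

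Retnlg encodes resistin-like gamma, a small secreted protein of mouse myeloid cells. Its log2 intensity was 9.97, 10.66 and 10.23 in neutrophilic, 10.63, 10.55 and 10.94 in mixed, 6.86, 10.58 and 8.91 in eosinophilic, and 8.45, 8.41 and 8.59 in control mice. Eosinophilic mouse 8 stood among the weekly intranasal mice, while eosinophilic mouse 7 was the lowest of all 12. The difference in neutrophilic lungs was 1.80 ± 0.66 over 12 arrays (adjusted p 0.198), and over 11 arrays its SE was 0.36 and it passed (0.00725).

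**Figure D2:**
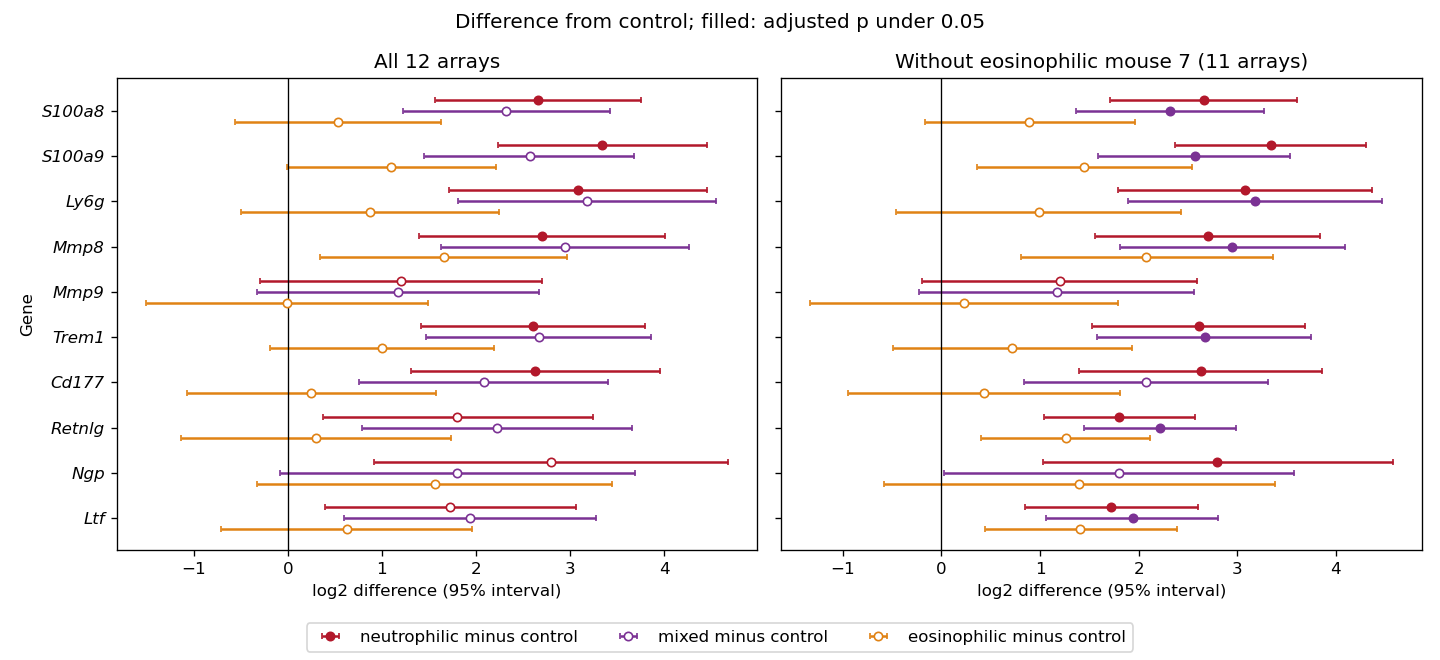
Log2 differences from control with 95% intervals (horizontal axis) for each gene in the neutrophilic, mixed and eosinophilic models, over all 12 arrays on the left and without eosinophilic mouse 7 on the right. Filled points passed an adjusted p of 0.05, which 6 neutrophilic, 0 mixed and 0 eosinophilic differences did on the left and 9, 7 and 0 on the right.

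The neutrophilic count rested on single mice. Without control mouse 2, neutrophilic mouse 24 or neutrophilic mouse 25 it was 0 of 10, and without control mouse 1 or 3 it was 1 of 10. It was 3 of 10 without mixed mouse 17. Over these 6 fits 0.0853% to 1.14% of all genes passed. The differences of all 10 genes nevertheless stayed above 0 in the neutrophilic and the mixed model in all 12 fits that left out an array, with a lowest value of 0.47 (Mmp9, neutrophilic). By rank alone, every neutrophilic mouse lay above every control mouse for 9 of the 10 genes, against 12.6% of all genes. All 3 mixed mice lay above all controls for 10 of the 10, against 9.16% of all genes.

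In mixed lungs, given a lower dose on the same schedule, the median log2 difference of the 10 genes from control was 2.27, against 0.0 over all genes. None of the 10 passed limma's threshold over all 12 arrays, where 0.326% of all genes rose and 0.145% fell. At an unadjusted p under 0.05, 8 of the 10 were higher, against 7.95% of all genes in either direction. Over the 11 arrays 7 of the 10 rose, against 1.41% of all genes, and none fell, against 1.57%. Ly6g stood 3.18 ± 0.63 above control, 9.05-fold, with an adjusted p of 0.0512 over 12 arrays and 0.0111 over 11. Mmp8 stood 2.95 ± 0.61 above control, 7.71-fold (0.0566 over 12 arrays and 0.00843 over 11). The genes that did not pass over 11 arrays were Cd177 (2.08, adjusted p 0.074), Ngp (1.80, 0.374) and Mmp9 (1.17, 0.539). Leaving out eosinophilic mouse 8 or neutrophilic mouse 23 in place of mouse 7 gave 6 of 10 (1.28% and 0.803% of all genes passed). Leaving out eosinophilic mouse 9 gave 1 (0.401%). The count was 0 without neutrophilic mouse 24 or 25 (0.311% and 0.356%). It was also 0 without any control or mixed mouse, where 0.0301% to 0.125% of all genes passed.

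In eosinophilic lungs, sensitised through the peritoneum, none of the 10 genes passed limma's threshold over 12 arrays, where 0.0752% of all genes rose and 0.421% fell, or over 11, where 0.451% rose and 0.883% fell. At an unadjusted p under 0.05 the count was 1 of 10 over 12 arrays, against 28.2% of all genes, and 4 of 10 over 11, against 16.4% of all genes. Mmp8 had the largest difference, 1.66 ± 0.61 over 12 arrays (adjusted p 0.131) and 2.08 ± 0.59 over 11 (adjusted p 0.107). All 3 eosinophilic mice lay above all controls for Mmp8 and Ngp, 2 of the 10 genes, against 11.1% of all genes. Mouse 8 was the highest eosinophilic mouse in 7 of the 10 genes, and mouse 7, the array that stood apart, was the lowest in 6, against 38.8% and 40.0% of all genes. For Retnlg the eosinophilic difference was 0.30 ± 0.66 with all 3 mice, 1.26 ± 0.40 without mouse 7 and -0.6 without mouse 8. Cd177 likewise went below 0 without mouse 8, at -0.2. Without mouse 8 the eosinophilic group holds only mice 7 and 9, both with narrow arrays.

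**Figure D3:**
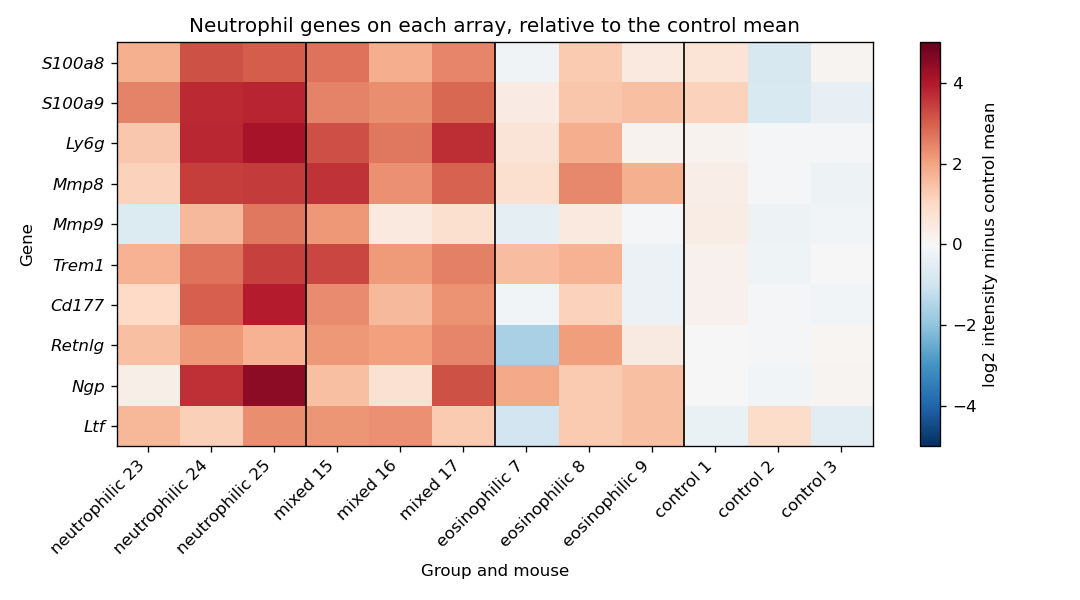
Each gene (rows) on each array (columns, by group and mouse) as log2 intensity minus the control mean, from blue (below) over white to red (above). Neutrophilic mice 24 and 25 and the mixed mice lie above the control mean in all 10 rows. Neutrophilic mouse 23 is the lowest of its group in 9 of the 10 and below the control mean for Mmp9. Eosinophilic mouse 7 is furthest below the control mean for Retnlg and Ltf, and also below it for S100a8, Mmp9 and Cd177.

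Mice within a group differed in many of the genes at once. Averaged over the 10 genes, the log2 intensity was 7.01, 8.63 and 9.08 in neutrophilic mice 23, 24 and 25, 8.36, 7.63 and 8.23 in mixed mice 15, 16 and 17, 5.98, 7.28 and 6.46 in eosinophilic mice 7, 8 and 9, and 6.06, 5.62 and 5.67 in control mice 1, 2 and 3. Neutrophilic mouse 23 was therefore below all mixed mice and below eosinophilic mouse 8. It was the lowest of the neutrophilic mice in 9 of the 10 genes, and in 42.6% of all genes. Mixed mouse 16 was the lowest of its group in 9 of the 10 genes, and in 35.1% of all genes. The narrow range of the array of mouse 23 is a measured fact beside this, and its part in the low values was not tested. Control mouse 1 was the highest control in 7 of the 10 genes, and in 34.7% of all genes.

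No difference between the higher and the lower weekly dose passed the threshold. None of the 10 passed limma's test of neutrophilic against mixed lungs over 12 or 11 arrays, where 0.0% of all genes passed in either fit. At an unadjusted p under 0.05 the count was 0 of 10 in both fits, against 3.1% of all genes over 12 arrays and 7.32% over 11. By point estimate 5 of the 10 were higher in neutrophilic and 5 in mixed lungs. Ngp had the largest difference, 1.0 on the log2 scale with a 95% interval from -0.89 to 2.88, and S100a9 was next at 0.77, from -0.34 to 1.89. Retnlg was lowest, at -0.42, from -1.85 to 1.02. Over the 10 genes the intervals spanned -1.85 to 2.88. For 0 of the 10 genes did all neutrophilic mice lie above all mixed mice, against 4.67% of all genes.

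Against eosinophilic lungs, both weekly intranasal groups were higher by point estimate in all 10 genes, but no gene passed the adjusted threshold. Over 11 arrays the median differences of the 10 were 1.58 (neutrophilic) and 1.04 (mixed), against -0.02 and -0.01 over all genes. Neutrophilic over eosinophilic log2 differences ran from 1.04 (Mmp8) to 2.38 (Cd177) over 12 arrays and from 0.31 (Ltf) to 2.2 (Cd177) over 11. None of the 10 passed limma's adjusted threshold, against 0.115% of all genes over 12 arrays and 0.191% over 11. At an unadjusted p under 0.05, 6 of the 10 were higher in neutrophilic lungs over 12 arrays and 5 over 11. In either direction, 10.2% and 7.78% of all genes were under it. Those 5 were S100a8, S100a9, Ly6g, Trem1 and Cd177, the S100 and surface genes. All neutrophilic mice lay above all eosinophilic mice in 3 of the 10 genes, against 4.21% of all genes. With eosinophilic mouse 8 left out, 6 of the 10 passed, against 13.9% of all genes in that fit. That fit keeps only the narrow arrays of eosinophilic mice 7 and 9. With neutrophilic mouse 23 left out 2 of the 10 passed, against 0.221%.

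Mixed over eosinophilic differences ran from 0.25 (Ngp) to 2.31 (Ly6g) over 12 arrays and from 0.4 (Ngp) to 2.19 (Ly6g) over 11. None of the 10 passed, against 0.00502% of all genes over 12 arrays and 0.0502% over 11. At an unadjusted p under 0.05 the count was 6 of 10 in each fit, against 16.7% of all genes over 12 arrays and 7.24% over 11. All mixed mice lay above all eosinophilic mice in 6 of the 10 genes, against 6.91% of all genes. Leaving out eosinophilic mouse 8 gave 5 of 10 past the threshold, against 30.0% of all genes in that fit. Here too only the narrow arrays of eosinophilic mice 7 and 9 remain. These comparisons share groups and are not independent of each other.

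Ordered by group mean, 5 genes (Ly6g, Mmp8, Trem1, Retnlg and Ltf) ran mixed, neutrophilic, eosinophilic, control from high to low. Another 4 (S100a8, S100a9, Cd177 and Ngp) ran neutrophilic, mixed, eosinophilic, control, and for Mmp9 control and eosinophilic lungs changed places. No step between neighbours in these orders passed the adjusted threshold over 12 or 11 arrays. A limma F test for any difference among the 4 groups was passed by 3 of the 10 genes over 12 arrays (S100a8, S100a9 and Ly6g), against 0.883% of all genes, and by 8 over 11 arrays, against 4.6%. The F count was 0 of 10 without control mouse 2 or 3, any mixed mouse, or neutrophilic mouse 24 or 25, and 1 without control mouse 1. In those fits only 0.0401% to 0.231% of all genes passed. The F count was 7 without neutrophilic mouse 23 (1.06% of all genes in that fit). It was also 7 without eosinophilic mouse 8 (26.3%), which leaves the narrow arrays of eosinophilic mice 7 and 9.

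**Figure D4:**
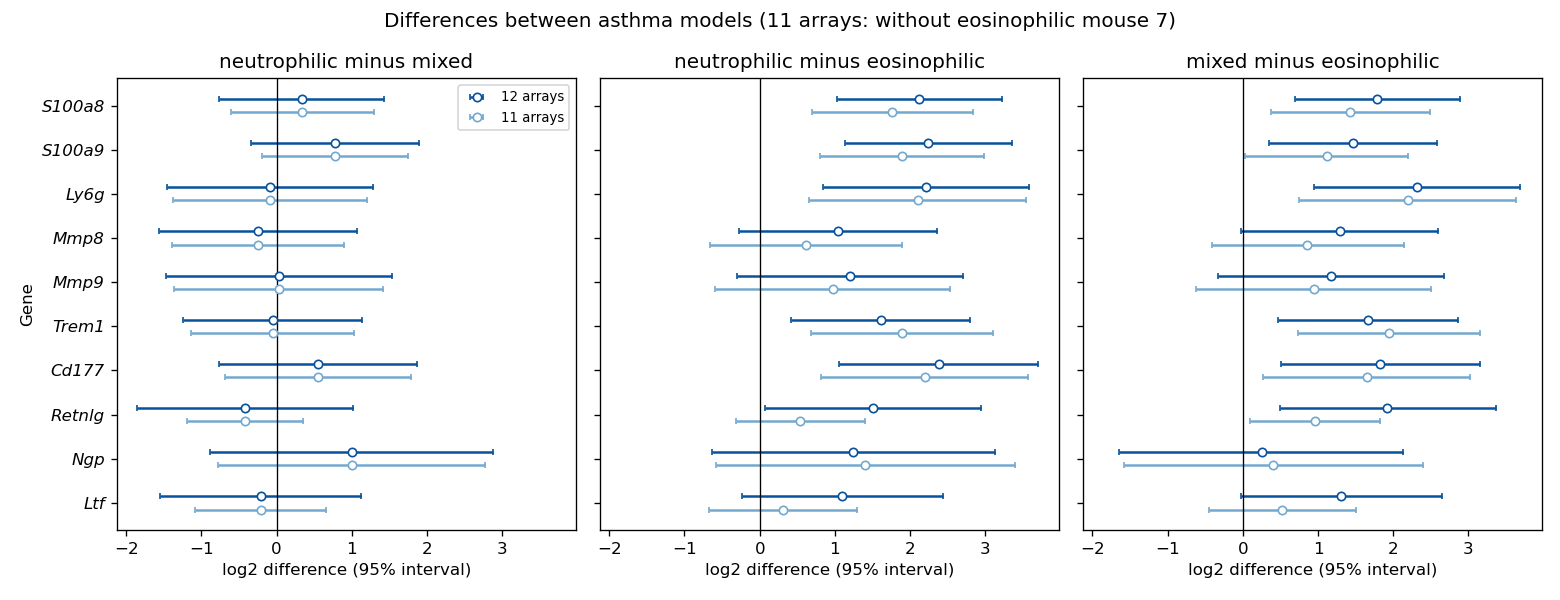
Log2 differences with 95% intervals (horizontal axis) between the asthma models for each gene, over 12 arrays (dark) and without eosinophilic mouse 7 (light). All 10 neutrophilic minus mixed intervals cross 0, and all neutrophilic and mixed points lie above eosinophilic lungs.

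Related genes were read from lists chosen by their known roles. Among primary granule genes, none of the 6 measured passed in neutrophilic, mixed or eosinophilic lungs over 12 or 11 arrays, with a median log2 difference of 0.34 in neutrophilic lungs. Mpo, myeloperoxidase, read 5.21, 3.83 and 4.52 in neutrophilic mice, against 3.89, 4.02 and 4.64 in control mice, and the groups overlapped. Elane, neutrophil elastase, differed by 0.04 and Prtn3, proteinase 3, by 0.34. The group means of Mpo, Elane, Prtn3, Ctsg and Ms4a3 ran from 3.78 to 5.3, near or below the array medians of 4.935 to 5.5. At such dim levels, not passing does not show that these genes were unchanged.

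Of 11 other specific and gelatinase granule genes, 3 rose in neutrophilic lungs over 12 arrays (Mmp25, Pglyrp1 and Arg1) and 5 over 11, and none fell. The median log2 difference was 1.2. In mixed lungs none of the 11 passed over 12 arrays and 5 rose over 11. Mmp25, a membrane-bound protease of leukocytes, rose by 1.63 (adjusted p 0.0333 over 12 arrays), and Adam8, a membrane protease of myeloid cells, by 2.73 over 11 (0.00318, against 0.076 over 12). Lcn2 and Camp lay outside the rule for naming genes and were added after their values were seen. Lcn2, the iron-scavenging lipocalin of specific granules and of airway epithelium, read 12.33, 13.29 and 13.47 in neutrophilic mice, against 9.81, 10.17 and 10.32 in control mice. It rose by 2.93 over 11 arrays (adjusted p 0.000987) and did not pass over 12 (0.34). Camp, the cathelicidin of specific granules, was 0.53 higher and did not pass (0.267 over 11 arrays). It was also dim, with means of 4.8 in neutrophilic and 4.27 in control lungs. In eosinophilic lungs Arg1, which alternatively activated macrophages also make, rose by 3.90 over 12 arrays (0.0462) and by 4.88 over 11 (1.09e-05). Over those 11 arrays Arg1 was lower in neutrophilic than in eosinophilic lungs (-2.11, adjusted p 0.0338), the other way from the 10 genes. Lcn2 also rose in eosinophilic lungs over 11 arrays, by 2.54 (0.0197).

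Of 19 other surface receptors of neutrophils, 3 rose in neutrophilic lungs over 12 arrays and 7 over 11, and none fell, with a median difference of 1.19. In mixed lungs 1 rose over 12 arrays and 7 over 11. Il1r2, the decoy receptor of interleukin-1, read 6.13, 8.23 and 8.8 in neutrophilic mice and 8.08, 6.36 and 7.87 in mixed mice, against 3.87, 3.8 and 4.45 in control mice. It rose by 3.68 in neutrophilic lungs (adjusted p 0.0148 over 12 arrays) and by 3.40 in mixed lungs (0.045), where it was the only receptor of the 19 to pass over 12 arrays. The others that rose in neutrophilic lungs over 12 arrays were Clec4d, a C-type lectin receptor, by 2.81 and Ccr1, a chemokine receptor, by 2.35.

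Ligands, adaptors and inhibitors of the 10 gene products were looked at one by one. Pglyrp1, a peptidoglycan-binding granule protein and a ligand of TREM1, read 8.84, 9.86 and 9.77 in neutrophilic mice, against 7.15, 7.37 and 7.28 in control mice, and rose by 2.22 (adjusted p 0.0491 over 12 arrays, 0.00814 over 11). It was the only one of 7 TREM1 signalling genes to rise, and the adaptor Tyrobp differed by 1.29 (0.094 over 11 arrays). Of 6 metalloproteinase inhibitors, Timp1 rose by 4.56 in neutrophilic lungs and by 5.11 in mixed lungs over 12 arrays (0.0292 and 0.0352), and by 4.78 in eosinophilic lungs over 11 (0.000263, against 0.0938 over 12). Timp1 read 9.43, 10.49 and 10.29 in neutrophilic mice, against 5.76, 5.74 and 5.04 in control mice. Reck, a membrane-anchored inhibitor of MMP9, fell by 2.16 (adjusted p 0.0434 over 12 arrays, 0.00119 over 11), and Timp2, Timp3, Timp4 and A2m did not pass.

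Among 6 receptors and co-receptors of calprotectin, Cd14, a co-receptor of TLR4, rose by 4.24 in neutrophilic lungs (0.0215) and by 4.37 in mixed lungs (0.0385) over 12 arrays, and by 2.93 in eosinophilic lungs over 11 (0.0187, against 0.176 over 12). Tlr4 itself differed by -0.19 in neutrophilic and 0.66 in mixed lungs. Cd36, a scavenger receptor, fell by 1.71 in neutrophilic lungs over 11 arrays (0.00165, against 0.266 over 12). Retnla, the resistin-like gene of alternatively activated macrophages and airway epithelium, stood 4.65 above control in neutrophilic lungs, 5.22 in mixed lungs and 5.10 in eosinophilic lungs over 11 arrays, where it passed in all 3 (2.4e-06, 5.37e-07 and 5.71e-06), and it passed in none over 12 (0.0554, 0.0713 and 0.128). Of 6 measured Ly6 family genes other than Ly6g, none passed over 12 arrays and Ly6i rose by 1.96 over 11 (0.0259). Cross-hybridisation between Ly6 family probe sets was not tested. Among 3 genes related to lactoferrin or its receptors (Trf, Itln1 and Lrp1) none passed in any model over 12 or 11 arrays.

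Growth factors and transcription factors of the lineage gave 0 of 11 past limma's threshold in neutrophilic lungs over 12 arrays and 6 over 11, with a median difference of 1.65. Csf2rb, the shared receptor chain for GM-CSF, rose by 2.48 over 11 arrays (adjusted p 0.000932, against 0.0626 over 12), and Cebpd, a C/EBP factor, by 1.79 (0.00329, against 0.136). Spi1, the gene of PU.1, was added after its values were seen and rose by 1.72 over 11 arrays (0.00318, against 0.224 over 12). Csf3, which encodes G-CSF, the main growth factor of neutrophils, read 4.48, 7.06 and 7.4 in neutrophilic mice 23, 24 and 25, against 4.56, 4.44 and 4.53 in control mice. Mouse 23 was at the control level and mice 24 and 25 above it, and the difference of 1.80 did not pass (0.0632 over 11 arrays). In a mixed list of 10 other neutrophil genes, not all of them of the cytosol, Ifitm6 rose by 2.3 over 12 arrays (0.0116). Over 11 arrays 4 of the 10 rose, among them Slpi, a protease inhibitor of neutrophils and epithelium.

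**Figure D5:**
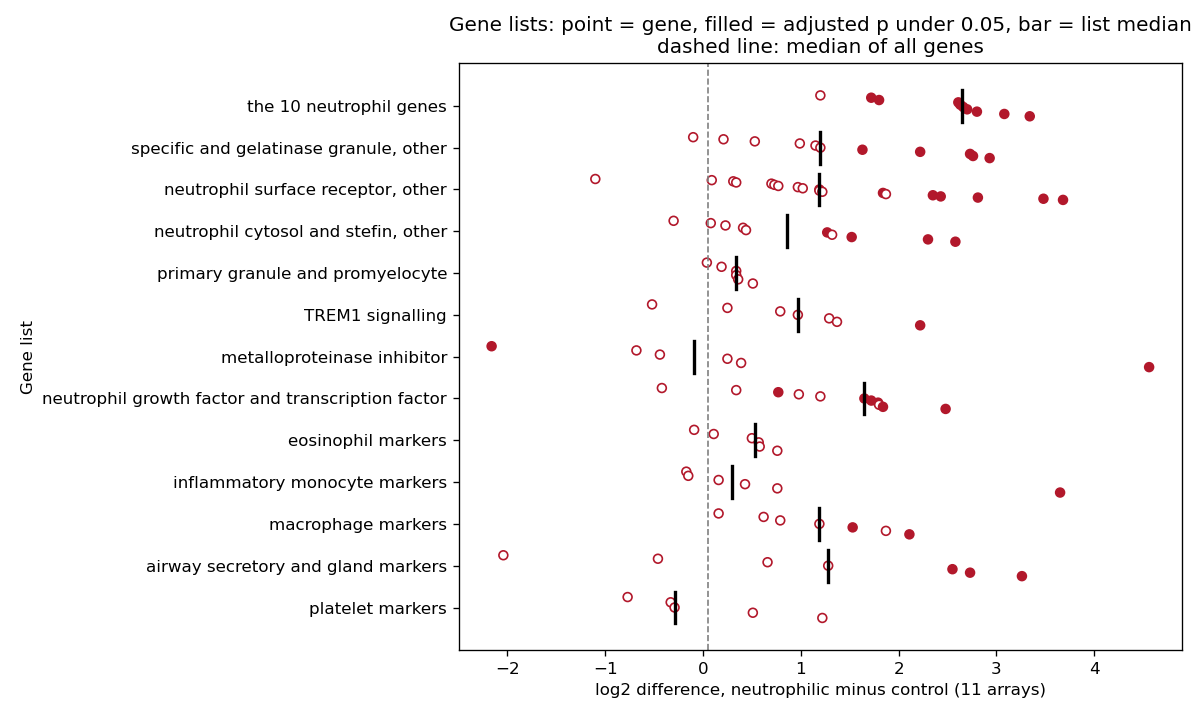
Log2 difference of neutrophilic minus control lungs over 11 arrays (horizontal axis) for each gene of 13 lists, with filled points past an adjusted p of 0.05, black bars for list medians and a dashed line for the median of all genes. The median of the 10 genes is 2.64 and that of the primary granule list, mostly dim genes, 0.34.

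Markers of other cell types were read on the same arrays. None of 6 eosinophil markers passed in neutrophilic, mixed or eosinophilic lungs over 12 or 11 arrays, and Epx, eosinophil peroxidase, read 5.62, 4.97 and 5.31 in eosinophilic mice, against 4.21, 4.2 and 4.21 in control mice. These readings are dim, and the medians of those arrays were 5.5, 5.007 and 5.245 in eosinophilic and 5.007, 4.935 and 5.083 in control mice. Of 6 inflammatory monocyte markers only Chil3, which macrophages also make, rose over 12 arrays, by 3.65 in neutrophilic, 4.11 in mixed and 3.20 in eosinophilic lungs (adjusted p 0.0139, 0.0157 and 0.0479). The log2 of the summed intensity of these 6 was 11.69 to 12.44 in neutrophilic, 11.88 to 12.46 in mixed, 9.28 to 12.6 in eosinophilic and 10.85 to 11.25 in control lungs. Of 7 macrophage markers, none passed over 12 arrays and Cd68 and C1qb rose in neutrophilic lungs over 11, by 1.53 and 2.11. Over those 11 arrays C1qb also rose in mixed lungs, by 1.66, and C1qb and Mrc1 in eosinophilic lungs, by 2.77 and 2.40. Their summed level was 10.53 to 12.06 in neutrophilic, 10.86 to 11.46 in mixed, 8.91 to 12.3 in eosinophilic and 9.95 to 10.56 in control lungs. The low eosinophilic ends for monocyte and macrophage markers, 9.28 and 8.91, were both from mouse 7, the array that stood apart. The part of monocytes and macrophages in the values of the 10 genes was not tested. These cells also express Trem1 and Mmp9. None of the 5 platelet, 2 erythroid, 4 T cell, 3 B cell and 5 mast cell or basophil markers measured passed in neutrophilic lungs over 12 or 11 arrays. Of 7 lung tissue markers none passed over 12 arrays, and Pecam1, an endothelial gene, fell by 0.93 in neutrophilic lungs over 11 (0.0394).

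Among genes outside the 10, those whose log2 intensities ran most like the mean of the 10 were found by Pearson's r over the 11 arrays. They were Rnf19b (r = 0.993), Myc (0.982), Cxcl10 (0.981), Tnfaip3 (0.979), Gbp5 (0.977), Cd83 (0.976), Fgf23 (0.975) and Cxcl2 (0.973). Over all 12 arrays their r ran from 0.957 (Rnf19b) to 0.982 (Cxcl10). For single genes, the closest were Clec4e for Mmp8 (r = 0.989), Spsb1 for Trem1 (0.983), Cd83 for S100a8 (0.98), Tnfrsf1b for Cd177 (0.98), Mt2 for Retnlg (0.979), Cxcl2 for Ly6g (0.978), Mvp for Mmp9 (0.975), Csf3 for Ngp (0.969), Nfil3 for S100a9 (0.968) and Bpifb1 for Ltf (0.951). The closest gene outside the 10 thus differed for each of them, and Bpifb1 is a secretory protein of airway epithelium. How closely the 10 ran with each other was not looked at. These points share the 4 groups and the array-wide range, and the r values describe them only.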

How the data were processed

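Total RNA of snap-frozen whole lungs was labelled from 300 ng with biotin, per the labels. The deposited values are log2 intensities, 1 per probe set, which the authors obtained by RMA with the software Affymetrix Expression Console (submitters' processing notes). No version or genome build was given in the sources used here, and the log base was taken from the range of the values. The table held 34760 probe sets on 12 arrays. The platform annotation gave 1 symbol for 21640 of them, several for 1321, and did not list 11799, and 21553 matched a RefSeq table of GRCm38.p6. Each of 19937 genes was represented by its brightest probe set on average.

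Group means were fitted with limma 3.58.1 in R 4.3.3 (lmFit, eBayes without trend) to the values as deposited, over 12 arrays and again over 11. P-values were two-sided and adjusted by the Benjamini-Hochberg method over all genes within each comparison. The scripts were tested on simulated data. The 10 genes and the gene lists were chosen with earlier results of these data known. All 10 genes are named. From each list up to 6 genes were named by smallest p in neutrophilic against control lungs, and ligands, adaptors, inhibitors and receptors of the 10 were added. Alike genes were sought outside the 10 and without predicted names. They were the 8 with the highest r to the mean of the 10 and the 1 closest to each. Alternatives were the mean of a gene's probe sets, a filter that kept the 13370 genes reaching 5 on 3 or more arrays, median centring, quantile normalization, a trended robust eBayes, fits of the 2 groups compared, and leaving out arrays.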

Additional observations from a re-analysis of the deposited data

How the results depend on the processing

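The count of the 10 genes past the threshold in neutrophilic against control lungs was 6 and stayed between 5 and 8 with the mean of probe sets, the dim filter, centring, quantile normalization, trend and robust settings, or only the groups compared. It was 10 without the 3 narrow arrays (eosinophilic mice 7 and 9, neutrophilic mouse 23), a fit that leaves 1 eosinophilic mouse, assumed to vary like the others. It ran from 0 to 9 when single arrays were left out. For mixed against control lungs the count of 0 became 4 with the dim filter, 2 with centring, 3 with quantile normalization, 4 with trend and robust settings, 9 with only the groups compared, 9 without the 3 narrow arrays, and 0 to 7 without single arrays. Without the 3 narrow arrays eosinophilic against control lungs gave 4, neutrophilic against eosinophilic 2, and the F test 10, and trend and robust settings gave 6 for the F test. Without single arrays, neutrophilic against eosinophilic ran from 0 to 6, mixed against eosinophilic from 0 to 5, and the F test from 0 to 8. Neutrophilic against mixed lungs stayed at 0 under every alternative run. Genes past the threshold in the whole table for neutrophilic against control lungs numbered 421, against 288 with quantile normalization, 694 with trend and robust settings, 2124 with only the groups compared, 3188 without the 3 narrow arrays, and 17 to 1889 without single arrays. For mixed against control lungs the 94 became 240, 1689 and 1859 with trend and robust settings, only the groups compared and without the 3 narrow arrays, and 6 to 596 without single arrays. For eosinophilic against control lungs the 99 became 14 with centring, 46 with quantile normalization, 237 with the dim filter, 285 with trend and robust settings, 0 with only the groups compared, 432 without the 3 narrow arrays, and 1 to 8264 without single arrays, the highest without eosinophilic mouse 8. For neutrophilic against eosinophilic lungs the 23 became 9 with quantile normalization, 0 with only the groups compared, 265 without the 3 narrow arrays and 0 to 2777 without single arrays. For mixed against eosinophilic lungs the 1 became 7 with trend and robust settings, 0 with only the groups compared, 24 without the 3 narrow arrays and 0 to 5979 without single arrays. For neutrophilic against mixed lungs the 0 became 53 without the 3 narrow arrays. The 176 of the F test became 499 with trend and robust settings, 2523 without the 3 narrow arrays and 8 to 5237 without single arrays. Among the comparisons with control, the only ones for which single genes were refitted, signs turned in eosinophilic lungs only. Mmp9, at -0.01, became 0.03 with centring, 0.26 with quantile normalization and 0.49 without the 3 narrow arrays, and ran from -0.25 to 0.23 without single arrays. Without single arrays Cd177 ran from -0.2 to 0.51 and Retnlg from -0.6 to 1.26. The cause of these shifts was not tested. Fits without eosinophilic mouse 8 kept only the narrow arrays of eosinophilic mice 7 and 9 in that group. With 3 arrays per group, the number of arrays limits the precision.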
